A study of Mus musculus with 5 samples.

Results

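Small nucleolar RNA host transcripts are RNAs whose introns carry small nucleolar RNAs (snoRNAs), and 7 of them were taken from the gene table by symbol: Gas5, Snhg1, Snhg3, Snhg6, Snhg7, Snhg8 and Snhg12. Each symbol was found in 1 row of the 28092 in the table, of which 23725 name a gene. Gas5, Snhg6 and Snhg8 had rows of their own. The other 4 stood in rows that name several genes, Snhg1 with Snord22, Snhg3 with the protein-coding gene Rcc1, Snhg7 with Snora17 and Snora43, and Snhg12 with Snora44 and Snord99. The genes were matched by symbol alone, though they were proposed with earlier results of these data known. The RNA came from whole forelimbs of mouse embryos at E11.5 (embryonic age in days), with 47 to 48 somites, from stock of mixed strains, C57BL/6 and Swiss Webster. There were 3 controls, whose alleles the labels do not list, and 2 Prmt5cKO samples of genotype Prx1Cre+/-;Prmt5c/c. In those samples Prx1Cre, a recombinase active in limb bud mesenchyme and not in the overlying ectoderm, met 2 conditional copies of Prmt5, the gene of an arginine methyltransferase whose substrates include the Sm proteins of the spliceosome. The table gives 1 FPKM value (fragments scaled to transcript length and library size) per genotype. No level below therefore has an SD, and sequencing depth per sample is unknown.

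SnoRNAs of the box C/D class guide methylation of ribose in ribosomal RNA, and those of the box H/ACA class guide the conversion of uridine to pseudouridine; a few, such as Snora73, act in the cleavage of the ribosomal RNA precursor. In mammals most are cut from the introns of a host transcript after splicing. The spliced host RNA itself often has no conserved reading frame, and several hosts, Gas5 among them, are translated briefly and then degraded by nonsense-mediated decay, the pathway that removes RNAs with early stop codons. Gas5 was first known as a transcript that accumulates in growth-arrested cells. Many hosts, like the messenger RNAs of ribosomal proteins, begin with a terminal oligopyrimidine (TOP) tract, a C followed by more C or T, which links their fate to translation.

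The targeted gene followed the labels: Prmt5 had 40.9 FPKM in control limbs and 12.5 in Prmt5cKO, 30.6% of control. Whether its row covers the deleted exons could not be checked. The forelimb label was checked on 8 mesenchyme markers, all measured, whose FPKM summed to 557 in control and 561 in Prmt5cKO. None of the 6 that were tested passed, and the other 2 were not tested. Among all 12332 named rows with a mean of 1 FPKM or more, 4.44% rose, 17.5% fell and 9.24% were not tested. Tbx5, the forelimb factor, was at 23.0 and 19.9 FPKM, Msx1 at 62.4 and 77.9, and Hoxd11 at 40.4 and 42.2. Of the hindlimb factors Tbx4 was at 3.81 and 2.95 FPKM and Pitx1 at 0.143 and 0.268. Sex-linked RNAs differed as well: Xist, which coats the inactive X, was at 87.3 and 0.392 FPKM, and the Y-linked Ddx3y at 0.0840 and 21.8. For every difference below, the sex of the embryos and their genotype cannot be told apart. Of 9 macrophage marker rows 7 rose (77.8%) and none fell, beside 4.44% and 17.5% of all named rows. Their summed level was 22.7 FPKM in control and 43.3 in Prmt5cKO, with no marker at 0. The smallest q among them were those of Csf1r, a growth factor receptor (3.36 and 5.57 FPKM), Emr1, the F4/80 antigen (1.90 and 4.29), and Stab1, a scavenger receptor (3.26 and 5.52). Of 6 erythroid markers only Alas2, an enzyme of heme synthesis, fell (16.7%, beside 17.5% of all named rows), from 29.3 to 20.7 FPKM. Their summed level was 9208 and 7328 FPKM, with the embryonic globins Hbb-y at 6478 and 4911 and Hbb-bh1 at 1432 and 1204, neither of which passed. The part of either cell type in the values of the hosts was not tested, and in whole limbs fewer cells of a type and less RNA per cell cannot be told apart.

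Together the 7 genes enclose 27 annotated snoRNAs, counting overlapping entries of 1 symbol once, with lengths from 60 to 205 bases. Gas5 lies on chromosome 1 from 161034422 to 161038539 on the plus strand and holds 9 of them. Snhg1, on chromosome 19 from 8723475 to 8726443 on the plus strand, holds 8. Snhg12 holds 4 and lies on the plus strand of chromosome 4 from 132308623 to 132311024, close to Snhg3, which lies on the minus strand from 132348014 to 132353686 and holds Snora73a and Snora73b. Snhg6 (chr1:9941959-9944118, minus strand) holds Snord87 alone, and Snhg8 (chr3:123507552-123508404, minus strand) holds Snora24 alone. These positions are from GENCODE vM21 on GRCm38 (mm10), which classes all 6 as noncoding. Snhg7, with Snora17 and Snora43, was placed from RefSeq on GRCm38.p6 at chr2:26637176-26640244, minus strand. In the map of the host genes, where exons are drawn for 6 of them, each snoRNA lies between exons, at most 1 to an intron.

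**Figure D1:**
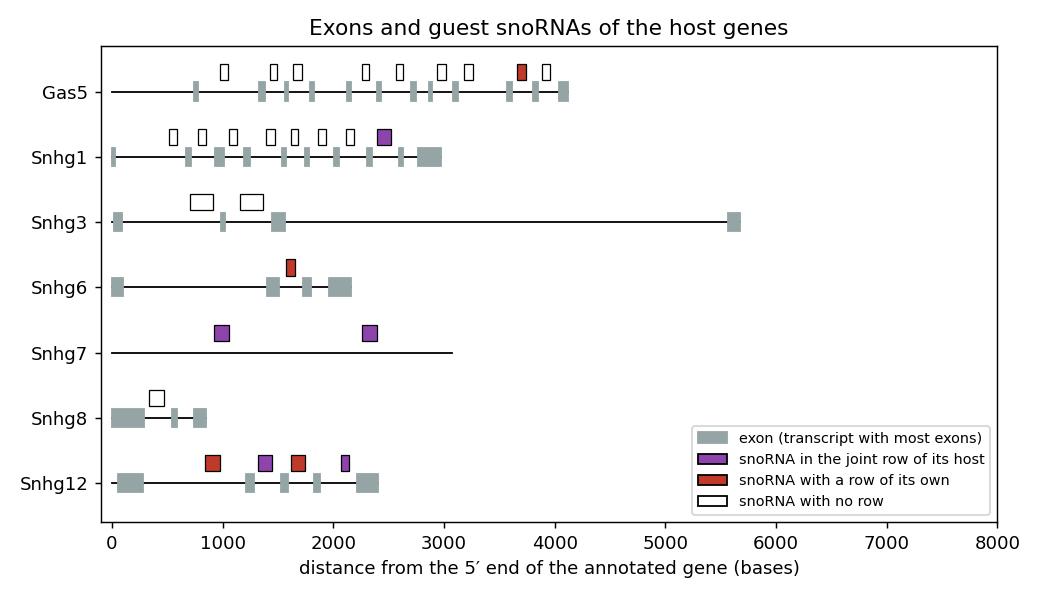
Map of the host genes, with distance from the 5′ end of each annotated gene in bases on the x axis. Grey boxes are exons of the transcript with most exons (none drawn for Snhg7), and boxes above the line are the 27 snoRNAs, coloured by whether they share the joint row of their host (5), have a row of their own (4) or have no row (18).

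The sequence around the first base of each host is shown because the TOP tract is the feature that hosts share with ribosomal protein genes. Each line runs 5′ to 3′ and gives 40 bases before and 30 bases from the start that RefSeq annotates on GRCm38.p6. For Snhg6 it gives 30 bases from a GENCODE start on GRCm38. Capitals mark the unbroken run of C and T that begins at the first base.
Gas5, second RefSeq start, chr1:161035126-161035195, plus strand: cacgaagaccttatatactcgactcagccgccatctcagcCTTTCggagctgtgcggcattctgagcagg
Snhg1, chr19:8723447-8723516, plus strand: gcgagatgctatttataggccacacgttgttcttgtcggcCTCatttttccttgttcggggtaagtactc
Snhg3, chr4:132353657-132353726, minus strand: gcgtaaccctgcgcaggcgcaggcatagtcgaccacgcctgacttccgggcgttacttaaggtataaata
Snhg6, chr1:9944089-9944118, minus strand: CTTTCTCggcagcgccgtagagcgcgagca
Snhg7, chr2:26640215-26640284, minus strand: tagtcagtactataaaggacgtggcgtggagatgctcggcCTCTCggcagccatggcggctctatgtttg
Snhg8, chr3:123508307-123508376, minus strand: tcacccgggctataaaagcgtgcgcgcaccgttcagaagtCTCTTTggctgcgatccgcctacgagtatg
Snhg12, chr4:132308638-132308707, plus strand: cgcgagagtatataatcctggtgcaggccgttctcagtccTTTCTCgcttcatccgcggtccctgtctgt
Of the starts shown, those of Gas5, Snhg6, Snhg7 and Snhg8 begin with a C inside a run of at least 5 pyrimidines. The Snhg6 start was picked from its GENCODE transcripts by this same rule, so its match was fixed in advance. The Gas5 start shown is the 1 of its 2 RefSeq starts that meets the rule. The run of Snhg12 begins with T at the RefSeq start. The upstream RefSeq start of Gas5 begins with G and is not shown. Snhg1 has a run of 3, and Snhg3 begins with G in RefSeq. Over all GENCODE transcripts the rule was met by 5 of 25 for Gas5, 0 of 18 for Snhg1, 1 of 5 for Snhg3, 1 of 5 for Snhg6, 1 of 3 for Snhg8 and 3 of 10 for Snhg12. The start shown for a host is thus 1 of several, and most annotated starts of each of these 6 do not meet the rule. Of the 7 RefSeq start entries of the hosts, 2 of them for Gas5, 3 met the rule. The share was 2.51% of all 32851 entries and 17.7% of 79 for cytosolic ribosomal proteins, taken by symbol. Messenger RNAs of ribosomal proteins are known for the TOP tract, yet most of these entries did not meet the rule. An annotated first base can thus miss the tract, and a host that fails the rule may still have one. TATAAA or TATATA, searched on both strands in the 50 bases before the start, was present in 5 of the 7 host entries, in 4.47% of all and in 5.06% of those for ribosomal proteins. A match of letters is a description of the window and no measurement of a factor or of translation.

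Guest snoRNAs are printed because they are what the host introns release. All are given for the hosts that rose, Snhg8 and Snhg6, and for Snhg7, and 3 of 9 for Gas5. Of the 8 in Snhg1 only Snord22 is printed. Of the 4 in Snhg12 only Snora44 and Snord99 are printed, and of the 2 in Snhg3 only Snora73a. Sequences are from GENCODE vM21 on GRCm38. Capitals mark, in box C/D snoRNAs, the first TGATGA (the core of box C) in the 5′ part and the last CTGA (box D) in the 3′ part, and in box H/ACA snoRNAs an ACA within the last 8 bases, searched on the RNA strand only.
Snora24 in Snhg8, chr3:123507937-123508066, minus strand: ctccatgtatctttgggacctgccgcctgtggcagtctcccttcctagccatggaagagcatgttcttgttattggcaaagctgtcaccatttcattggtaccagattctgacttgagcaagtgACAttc
Snord87 in Snhg6, chr1:9942463-9942549, minus strand: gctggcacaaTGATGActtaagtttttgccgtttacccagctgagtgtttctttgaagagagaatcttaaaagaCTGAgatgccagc
Snord47 in Gas5, chr1:161038082-161038158, plus strand: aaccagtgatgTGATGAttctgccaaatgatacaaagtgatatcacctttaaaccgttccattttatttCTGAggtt
Snord78 in Gas5, chr1:161036984-161037049, plus strand: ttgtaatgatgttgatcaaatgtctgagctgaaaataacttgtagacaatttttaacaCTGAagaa
Snord80 in Gas5, chr1:161037601-161037681, plus strand: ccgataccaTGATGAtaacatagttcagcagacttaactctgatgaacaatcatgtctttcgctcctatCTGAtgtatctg
Snord22 in Snhg1, chr19:8725866-8725991, plus strand: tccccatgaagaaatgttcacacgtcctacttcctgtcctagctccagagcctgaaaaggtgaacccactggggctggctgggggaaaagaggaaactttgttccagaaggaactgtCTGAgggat
Snora73a in Snhg3, chr4:132352775-132352979, minus strand: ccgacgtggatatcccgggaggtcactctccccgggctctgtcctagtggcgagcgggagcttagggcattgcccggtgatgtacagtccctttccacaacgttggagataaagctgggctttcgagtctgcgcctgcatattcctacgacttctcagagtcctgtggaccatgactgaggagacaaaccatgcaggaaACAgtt
Snora17 in Snhg7, chr2:26639190-26639321, minus strand: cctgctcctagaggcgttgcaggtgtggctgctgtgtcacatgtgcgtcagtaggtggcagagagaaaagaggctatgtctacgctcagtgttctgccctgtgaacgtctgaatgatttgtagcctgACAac
Snora43 in Snhg7, chr2:26637847-26637985, minus strand: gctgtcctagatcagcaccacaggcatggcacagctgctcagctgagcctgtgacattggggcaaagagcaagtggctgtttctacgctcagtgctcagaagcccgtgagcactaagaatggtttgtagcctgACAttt
Snora44 in Snhg12, chr4:132309941-132310069, plus strand: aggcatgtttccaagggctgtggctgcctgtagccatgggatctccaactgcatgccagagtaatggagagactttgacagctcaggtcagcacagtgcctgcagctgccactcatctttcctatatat
Snord99 in Snhg12, chr4:132310691-132310764, plus strand: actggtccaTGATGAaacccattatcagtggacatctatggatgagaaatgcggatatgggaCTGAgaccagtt
Hosts thus carry guests of either class, and Snhg12 carries both. Both C/D motifs stood in these positions in 73.7% of 99 Snord transcripts of the annotation, and ACA in 95.2% of 42 Snora transcripts; Snord22 and Snord78 lack the TGATGA and Snora44 the ACA as annotated. Snora73b, the other guest of Snhg3, is identical to Snora73a at 198 of 205 positions.

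All 7 hosts were among the more abundant rows of the limb, each above at least 83.8% of the 12332 named rows with a mean of 1 FPKM or more. The row of Snhg3 and Rcc1 was the highest, at 1425 FPKM in control and 1226 in Prmt5cKO. Snhg7 followed with its 2 snoRNAs (269 and 217 FPKM), then Snhg1 with Snord22 (169.6 and 158) and Gas5 (102 and 103). The lowest were Snhg8 (41.2 and 59.3), Snhg6 (37.2 and 52.2) and the row of Snhg12 (33.3 and 42.0). These levels are per length and can be set in order, but without a spread it is unknown which neighbours in the order differ. In the joint rows the share of the host itself cannot be told apart from that of the genes listed with it.

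**Figure D2:**
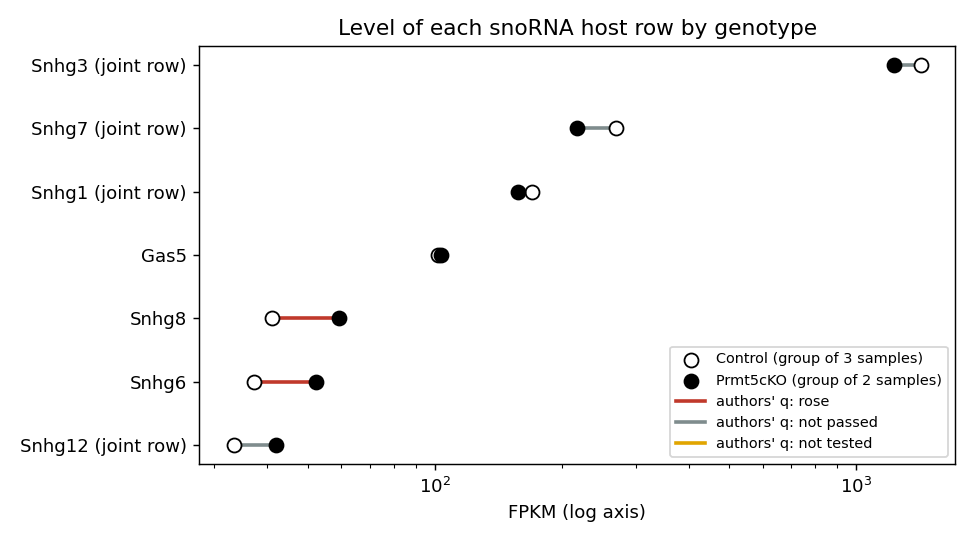
FPKM of each host row on a log axis, with 1 open point for control and 1 filled point for Prmt5cKO and no error bars because the table holds 1 value per genotype; the joining line is red where the authors' q called a rise. Snhg8 and Snhg6 lie to the right in Prmt5cKO, the points of Gas5 nearly coincide, and the 3 rows of highest level lie to the left.

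Snhg8 and Snhg6 were higher in Prmt5cKO than in control, and no host was called lower. A row is called here where the authors' q, an adjusted p-value, is under 0.05 and the mean is at least 1 FPKM. Snhg8 rose from 41.2 to 59.3 FPKM, 1.44 times the control level, and the authors' deposited table lists a log2 change of 0.52 (q = 7.62e-05). Snhg6 rose from 37.2 to 52.2 FPKM, 1.40 times control, a log2 change of 0.49 for which the authors' deposited table has q = 0.030. Both are hosts of 1 snoRNA in a row of their own, one of the H/ACA and one of the C/D class. So 2 of 7 hosts rose, none fell, 4 did not pass and Gas5 was not tested, against 4.44% of all 12332 named rows that rose, 17.5% that fell and 9.24% that were not tested. Among the 2002 rows at least as abundant as the lowest host, 4.15% rose, 14% fell and 16.7% were not tested. The table holds adjusted values only, so no count at an unadjusted p can be given beside these.

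Gas5, the host with most guests, was nearly level, with 102 FPKM in control and 103 in Prmt5cKO, a log2 ratio of 0.022. Its fold change is listed as 0 with a q of 1 in the authors' deposited table, which was read as not tested. The ratio lay 0.15 above the median of all named rows, which was -0.13 on the log2 scale.

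None of the 4 joint rows passed. Snhg12 with Snora44 and Snord99 went from 33.3 to 42.0 FPKM, 1.26 times control, and the authors' deposited table has 0.34 on the log2 scale with q = 0.364. Snhg1 with Snord22 had a log2 fold change of -0.10 (q = 0.605), which becomes 0.026 when set against the median of all rows, and Snhg3 with Rcc1 had -0.22 (q = 0.135) in the authors' deposited table. Snhg7 with its 2 snoRNAs was at 0.806 times control, which the authors' deposited table lists as -0.31 on the log2 scale (q = 0.319). The joint rows therefore lay on both sides of control and of the whole table, with a median log2 ratio of -0.16. The 3 hosts in rows of their own had a median of 0.49, and among all 11868 rows that name 1 gene 4.39% rose, 17.4% fell and 9.16% were not tested. All 7 hosts together had 0.022, or 0.022 also with a pseudocount of 1 FPKM against -0.12 for 11674 single genes. Among all 464 joint rows of the table with a mean of 1 FPKM or more, 5.82% rose, 20.3% fell and 11.2% were not tested. Whether the hosts in joint rows would differ if measured alone was not tested.

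**Figure D3:**
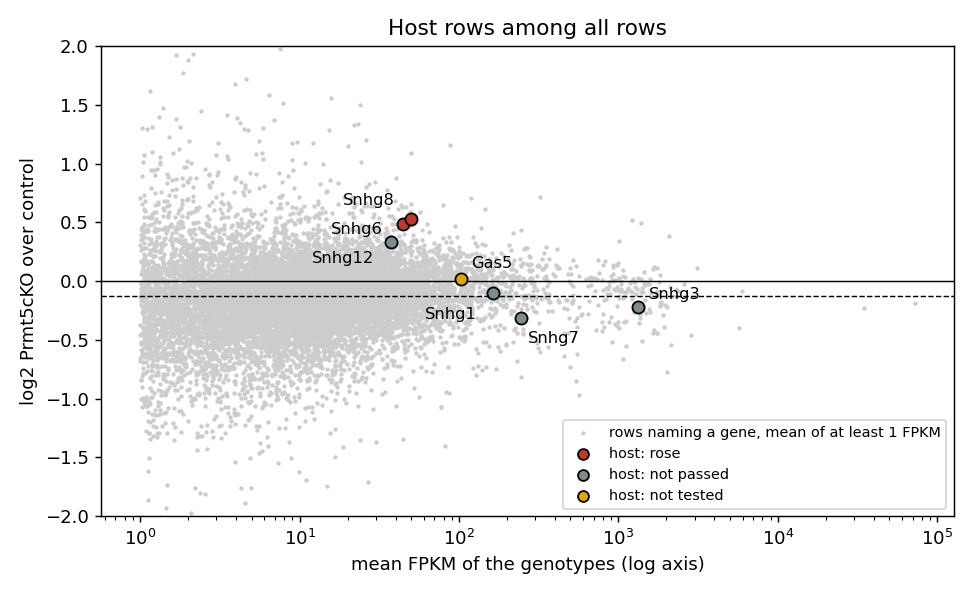
Log2 ratio of Prmt5cKO over control against mean FPKM on a log axis, with 12314 named rows above 0 FPKM in both genotypes in grey (30 lie outside the y axis), the hosts as large points, and a dashed line at the median of all rows (-0.13). Snhg8 and Snhg6 lie near 0.5, Snhg12 below them and the 3 most abundant host rows between -0.10 and -0.31.

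Most guest snoRNAs could not be followed. Of the 27, 18 had no row under their symbol, 5 shared the row of their host and 4 had rows of their own. Snora16a, a guest of Snhg12, had 27.5 FPKM in controls and 36.3 in Prmt5cKO limbs. Its log2 change of 0.40 in the authors' deposited table (q = 0.570) stood beside 0.34 for the row of its host. Snora61, also in Snhg12, Snord87 in Snhg6 and Snord47 in Gas5 were listed at 0 in both genotypes. Snora24, the guest of Snhg8, had no row, so the rise of either host could not be set beside a level of its snoRNA. The fragment lengths kept in the libraries, on which FPKM of RNAs this short depends, are not stated in the labels.

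No protein-coding neighbour with a row was called higher. Snhg8 lies 955 bases from Prss12, a protease gene at 0.951 and 1.07 FPKM (q = 0.749 in the authors' deposited table). On its other side the nearest measured gene, Tram1l1, is 812451 bases away, at 5.86 and 6.00 FPKM (q = 0.940 in the authors' deposited table). Snhg6 overlaps Mcmdc2 by 127 bases on the opposite strand. Mcmdc2, a meiotic gene of the MCM family, was at 0.607 and 1.05 FPKM (q = 0.179 in the authors' deposited table), a small level beside the 37.2 and 52.2 FPKM of Snhg6, and Cops5, a signalosome subunit 80483 bases away, was at 44.4 and 39.7 (q = 0.284). Gas5 overlaps Zbtb37, a zinc finger gene, by 428 bases on the opposite strand, and Zbtb37, at 7.88 and 5.87 FPKM, was likewise not tested. The labels do not say whether the libraries kept the strand; without it, reads in an overlap cannot be assigned to either gene.

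Around Snhg1, Snhg3, Snhg7 and Snhg12 only 1 neighbouring gene, Trnau1ap, was called. Trnau1ap, a factor of selenocysteine incorporation that lies 739 bases beyond the end of Snhg12 on the opposite strand, had 34.6 FPKM in control and fell to 21.0. The authors' deposited table gives it -0.72 on the log2 scale with q = 5.62e-10. Snhg12 itself did not pass. Trnau1ap is also the nearest measured gene on 1 side of Snhg3, 18476 bases away on the same strand. Slc3a2, an amino acid transporter subunit that starts 106 bases from Snhg1 on the opposite strand, was at 20.3 and 22.1 FPKM (q = 0.383 in the authors' deposited table). Phactr4, next to Snhg3, had a log2 fold change of 0.21 (q = 0.176), and Fam69b, next to Snhg7, -0.08 (q = 0.770), in the authors' deposited table. Wdr74, in a row shared with 1700092M07Rik, lies 9384 bases from Snhg1 on its other side and did not pass. Nor did Taf12, 12857 bases from Snhg12, Sgk3, 41114 bases from Snhg6, or Surf6, 248384 bases from Snhg7. Gm17300, which overlaps Snhg3 on the opposite strand, has no row. Among the neighbours of Gas5, Rc3h1, 59444 bases away, was called and fell by 0.35 on the log2 scale (q = 0.026 in the authors' deposited table).

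The annotation holds 60 further noncoding genes with a snoRNA in an intron of at least 1 of their transcripts, of which 21 reached a mean of 1 FPKM. The authors' q called 7 of them higher and 1 lower, 12 missed the threshold and 1 was untested, with a median log2 ratio of 0.11. These are 33.3%, 4.76% and 4.76% risen, fallen and untested, beside 4.44%, 17.5% and 9.24% of all named rows. Snhg15, host of Snora9 and listed as Gm11974, rose most, from 12.4 to 31.1 FPKM, or 1.32 on the log2 scale, and the authors' deposited table lists its q as 0. Rab26os, host of Snord60, rose from 32.1 to 68.3 (in the authors' deposited table, log2 change 1.09 and q = 1.26e-07). Rian, the imprinted host of a large C/D cluster, was the 1 that fell, from 74.3 to 37.4 FPKM in a row shared with 3 other symbols. The other 5 that rose were named after their values were seen. They were Snhg17, Snhg20 and the Rik genes 2700038G22Rik, 1110038B12Rik and 1810032O08Rik, with log2 fold changes from 0.26 to 0.68 in the authors' deposited table. Each of these Rik genes shared its row with 1 or more snoRNAs, so the share of the host cannot be told apart. Of the 21 rows 7 were joint. Of the 14 hosts in rows of their own 4 rose (28.6%) and none fell, with a median log2 ratio of 0.10. Among all rows that name 1 gene 4.39% rose and 17.4% fell. A limit to hosts of snoRNAs that carry a Snora, Snord or Scarna symbol was added after the values were seen. With it 5 of 13 rose (38.5%), none fell and 1 was not tested, and 3 of the 5 that rose were joint rows.

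No host that encodes a ribosomal protein was called. Of 30 such genes none rose and none fell, beside 4.44% and 17.5% of all named rows, and their median log2 ratio was -0.006. Rps20, with the smallest q, was at 1725 FPKM in control and 1442 in Prmt5cKO (in the authors' deposited table, log2 change -0.26 and q = 0.129). Rps12, at 2160.5 and 1856 FPKM, Rpl13a, at 1542 and 1322 in a joint row, and Rpl4, at 881 and 969, followed in order of q among hosts of named snoRNAs. A list of 82 measured genes, taken by cytosolic ribosomal protein symbols, includes these hosts and also Rps19bp1, a binding protein of Rps19. Only Rps27l, a p53-induced paralog of Rps27, was called among the 82, from 244 to 401 FPKM, with 7 not tested. That is 1.22% risen, none fallen and 8.54% untested, beside 4.44%, 17.5% and 9.24% of all named rows. Rps9, no host here, went from 1539 to 1295 FPKM without passing. Of 191 other protein-coding hosts 23 rose and 27 fell, while 109 missed the threshold and 32 were untested, with a median log2 ratio of -0.07. These are 12.0%, 14.1% and 16.8% risen, fallen and untested, beside 4.44%, 17.5% and 9.24% of all rows. The 191, and the 42 below, include Rcc1, whose row is the joint row with Snhg3 already described among the hosts. The 3 with the smallest q all fell, and the authors' deposited table lists each q as 0. Robo2, an axon guidance receptor in a row shared with Mir691, fell from 47.7 to 29.1 FPKM, Vps13b, a Golgi protein, from 26.8 to 17.2, and Nbea, neurobeachin, from 14.1 to 9.01. Many of the 191 hold only predicted snoRNAs. With named snoRNAs only, a limit added after the values were seen, 8 of 42 rose (19.0%) and 1 fell (2.38%). Another 7 were not tested (16.7%). Of the 42 rows 10 were joint, among them 3 of the 8 that rose. The 3 smallest q of the 42 were all of rises. Rabggtb, a prenyltransferase subunit, went from 39.4 to 48.9 FPKM in a row with Msh4, Snord45b and Snord45c, and Tsr1, a ribosome assembly factor, from 24.4 to 30.6 in another. Ncl, the nucleolar protein nucleolin, was the third, at 29.2 FPKM in control and higher by 0.45 on the log2 scale (q = 5.68e-05, authors' deposited table).

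**Figure D4:**
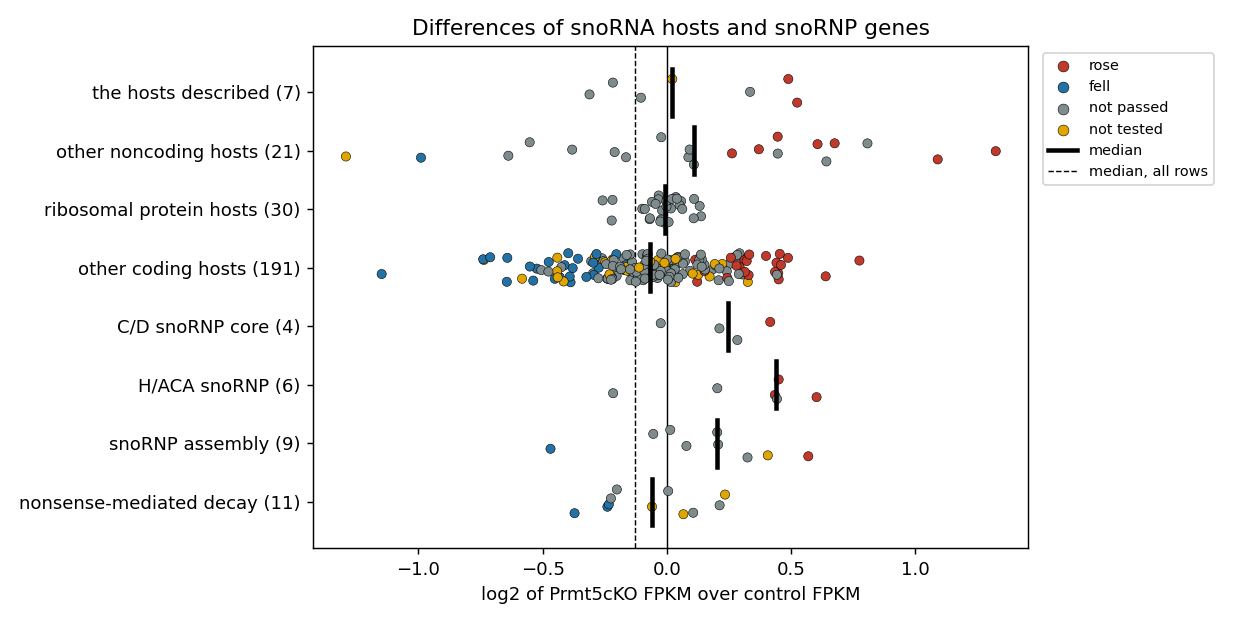
Log2 ratio of Prmt5cKO over control for each measured gene (points, coloured by the authors' q) of the host classes and of the snoRNP and decay lists, with the median of each list (bar) and of all named rows (dashed line, -0.13); numbers in brackets count rows with a mean of at least 1 FPKM. Ribosomal protein hosts crowd around 0, while other noncoding hosts spread from -1.29 (AA465934, not tested) to 1.32. The row of Snhg3 and Rcc1 is drawn again among the other coding hosts, which also hold Dkc1, Nop56 and Nop58 of the snoRNP lists.

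Proteins that bind snoRNAs were called higher in part. In the H/ACA list 3 of 6 rose and none fell, with a median log2 ratio of 0.44, beside 4.44% of all rows that rose and 17.5% that fell; the lists are too short for a share to be read closely. They were Dkc1, the pseudouridine synthase of the particle, from 24.2 to 33.1 FPKM; Nhp2, a core subunit, from 49.5 to 67.0; and the assembly factor Naf1, from 3.86 to 5.86. The authors' deposited table lists log2 changes of 0.45, 0.43 and 0.60 (q = 1.15e-06, 0.0149 and 0.00750). Of the 4 core proteins of C/D particles 1 rose and none fell, beside the same shares of all rows. Fbl, the methyltransferase fibrillarin, rose from 55.5 to 74.1 FPKM (in the authors' deposited table, log2 change 0.42 and q = 0.0125). Nop56 stood at 109.6 and 108 FPKM without passing, as did Nop58 (78.6 and 95.7) and Nhp2l1 (108 and 125). Nop56, Nop58 and Dkc1 are themselves hosts and are also counted above among the other protein-coding hosts.

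Of 9 factors that assemble snoRNPs 1 rose and 1 fell, or 11.1% each, beside 4.44% of all rows that rose and 17.5% that fell. Znhit6 rose from 4.61 to 6.84 FPKM and Pih1d1, a subunit of the R2TP chaperone complex, fell from 48.0 to 34.7, and the authors' deposited table lists log2 changes of 0.57 and -0.47 (q = 0.00351 and 1.08e-05). Another 6 did not pass, among them Nufip1 at 9.53 and 11.9 FPKM, and Nolc1, a nucleolar chaperone of snoRNPs, was not tested at 30.6 and 40.6 FPKM. Of 11 measured genes of nonsense-mediated decay none rose and 3 fell. These were Nbas, Upf2 and Smg6, with log2 changes listed in the authors' deposited table as -0.37, -0.24 and -0.23 (q = 1.03e-05, 0.0296 and 0.0472). That is 27.3% of the list beside 17.5% of all rows. Upf1, the helicase at the centre of the pathway, was at 10.9 and 12.8 FPKM and was not tested.

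Trp53, the gene of p53, rose from 45.5 to 68.6 FPKM and its target Cdkn1a from 3.45 to 19.9 in the authors' deposited table. The part of p53 in the levels of the hosts was not tested. The rows nearest to Snhg8 in the plane of log2 control and log2 Prmt5cKO FPKM were Snrpd3, an Sm protein (41.9 and 58.4 FPKM), Acin1 (39.7 and 58.1, not tested) and Mybbp1a (39.2 and 58.8), at distances of 0.03 to 0.07. The nearest to the row of Snhg3 were the embryonic globin Hbb-bh1 and the histone genes Hist1h3h and Hist1h2bm. With 2 values per gene this likeness covers level and fold only.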

How the data were processed

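The deposited gene table was used, with 1 FPKM value per genotype, a log2 fold change (Prmt5cKO against control) and a q-value, or adjusted p-value, per the file headers. Cufflinks 2.1.1, Bowtie2 2.1.0, TopHat2 2.0.10 and the build mm10 are listed, without roles, per the submitters' processing notes. Not given in the sources used here are the authors' test, its adjustment, how replicates were combined, the annotation and the strandedness. The deposited fold changes hold a placeholder where 1 genotype is at 0 and otherwise differ from the log2 of the FPKM ratio by at most 1.28e-05 over 20663 tested rows. A fold of 0 with q of 1 was read as not tested.

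No values per sample were available here, so the planned limma fit was not run and every q is the authors'. Groups follow the sample titles (3 and 2). Whether the q measures the spread between replicates is unknown; depth per sample is unknown too. Calls need q under 0.05 and a mean of at least 1 FPKM. Rows naming no gene were left out, and 1 row per symbol was used (highest mean). FPKM does not correct for composition. Hosts and neighbours come from GENCODE vM21 (GRCm38); most host genes also have transcripts that retain the intron, so a snoRNA had to lie in an intron of at least 1 transcript. Older symbols were matched through RefSeq GRCm38.p6 synonyms. Sequences are from GENCODE vM21 and RefSeq. The promoter table held 6 of the 7 hosts. Genes are named by rule: the hosts, 3 genes of smallest q per list, neighbours, and Prmt5, Xist, Ddx3y, Trp53, Cdkn1a and the nearest rows; others named were chosen after their values were seen, and 1 neighbour is not reported here. Members and lists were chosen with earlier results of these data known. Python 3.11.15 and pandas 2.3.3 were used, and the call and intron steps were tested on simulated data.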

Additional observations from a re-analysis of the deposited data

How the results depend on the processing

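The count of 2 hosts that rose and 0 that fell was the same with q under 0.1. Other minimum levels, centring, and leaving out rows of several genes could not change it, since all hosts lie above those levels, the q is the authors' own and both risen hosts have single rows. With q under 0.01, only Snhg8 rose (1 host). Centring kept the sign of 6 hosts and reversed Snhg1, at 0.026, a shift built into the centring. The median log2 ratio of the 7 hosts with a pseudocount of 1 FPKM, 0.022, was the same with pseudocounts of 0.1 and 0.01 and with the other minimum levels, and 0.14 after centring on single genes. It was 0.48 for the 3 hosts in rows of their own and -0.16 for the 4 in joint rows, a split added after seeing the data. No paired analysis was possible because the table holds 1 value per genotype, and for the same reason the planned replicate block and the omission of each replicate were not run. The unknown depth limits every value, and those of joint rows cover more than the host.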

Other observations

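Rows that name a snoRNA or a small Cajal body RNA (scaRNA, a related guide for spliceosomal RNAs) alone were mostly not called. Of 30 such rows with a mean of at least 1 FPKM, 1 rose (3.33%), 3 fell (10%) and 2 were not tested, beside 4.44% and 17.5% of all named rows, with a median log2 ratio of -0.22. Snord104 rose from 15.8 to 36.3 FPKM and Scarna2 fell from 556 to 357, for which the authors' deposited table lists log2 changes of 1.20 and -0.64 (q = 8.65e-10 and 4.06e-06). The other 2 that fell, named after their values were seen, were Snora74a, from 374 to 252 FPKM, and Snord15b, from 390.4 to 257. With joint rows included, a further 59 snoRNA and scaRNA symbols stood below the minimum level, all of them listed at 0 in both genotypes. None of the 4 called rows is a guest of the 7 hosts. Whether snoRNA rows and host rows differ was not tested.

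Outside the 7 hosts, 4 other rows with a symbol that begins with Snhg reached 1 FPKM. Snhg4 was at 8.86 FPKM in control and rose to 21.6, which the authors' deposited table lists as 1.28 on the log2 scale (q = 1.44e-07). Snhg10, at 4.32 and 7.56 FPKM (q = 0.0819), Snhg5, at 47.6 and 50.8 (q = 0.584), and Snhg18, at 5.63 and 5.54 (q = 0.969), did not pass in the authors' deposited table. These symbols were listed after their values were seen. Snhg5, Snhg10 and Snhg18 are also counted above among the other noncoding hosts, and Snhg4 is not.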
